A study of Mus musculus with 15 samples.

Results

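Chgb, Rab5a, Atg3 and Uhrf1bp1l are 4 genes of secretory vesicles, endosomes and autophagy that carry a named probe on the arrays of this study. They were chosen by gene name and probe, with earlier results of these data known. They are 4 of the 46 genes with a named probe, among 60691 probes in all. Total RNA came from the ipsilateral striatum of male mice and was hybridised on 15 Agilent arrays of 1 colour, with 5 arrays in each group. The sham group had no hemorrhage and received distilled water by gavage. The ICH group had intracerebral hemorrhage (bleeding into the brain tissue) and received the same volume of water. The BYHWD group had the same hemorrhage and received Buyang Huanwu decoction, a herbal formula of traditional Chinese medicine, by gavage at 6.19 g/kg once a day. All tissue was taken on day 14. The strain, the age and the way the hemorrhage was made are not given in the sources used here. Whether the 5 samples of a group are 5 mice is not said in the labels, and p-values here reflect only how far these samples spread.

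These genes serve several routes of membrane traffic. Chgb encodes chromogranin B, an acidic protein packed with hormones and neuropeptides into the dense core granules of neurons and endocrine cells. Rab5a encodes the small GTPase that defines the early endosome, where newly internalised receptors are sorted and endosomes fuse with one another. Atg3 encodes the E2-like enzyme that, after receiving LC3-family proteins from the E1-like Atg7, passes them to phosphatidylethanolamine on the growing autophagosome membrane. Uhrf1bp1l encodes a relative of the VPS13 and ATG2 proteins, which form channels for lipid between membranes, and it is found on endosomal vesicles.

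The promoters of all 4 genes were in the RefSeq table for GRCm38.p6, which holds 250 bases before and 50 after each gene start. A pair of short palindromes, which read the same on both strands, was searched in them. CACGTG is the E-box at the core of the element bound by TFEB, a factor known for driving lysosome and autophagy genes, and is also bound by MYC and USF proteins. TGACGTCA is the cAMP response element bound by CREB-family factors. The stretches that hold a match are shown because they are a feature by which the 4 genes differ, with the matches in capitals, on the plus strand.
Chgb, chr2:132781555-132781592: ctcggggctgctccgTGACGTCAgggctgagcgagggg
Rab5a, chr17:53478984-53479019: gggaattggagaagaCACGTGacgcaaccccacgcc
Rab5a, chr17:53479124-53479228: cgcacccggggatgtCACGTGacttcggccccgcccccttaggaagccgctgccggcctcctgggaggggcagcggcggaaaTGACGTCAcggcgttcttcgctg
Atg3, chr16:45158720-45158778: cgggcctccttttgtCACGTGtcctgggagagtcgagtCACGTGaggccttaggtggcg

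The match of Chgb ends 65 bases before the gene start. Rab5a had 2 E-boxes, ending 230 and 90 bases before its start, and 1 cAMP response element ending 21 bases before it. Atg3 had 2 E-boxes, ending 89 and 66 bases before its start. Uhrf1bp1l had neither run of letters in its window. Over all 32851 promoters of the table, 7.15% held CACGTG at least once, 0.594% held it more than once and 1.79% held TGACGTCA. These matches describe sequence only, and no binding was measured here.

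Each of the 4 genes was read by 1 probe printed as 10 spots per array. The probes were A_51_P191669 for Chgb, A_51_P117604 for Rab5a, A_51_P143855 for Atg3 and A_51_P274635 for Uhrf1bp1l. All 10 spots of each probe were well above background on all 15 arrays, and none was saturated. The mean signal of Chgb ranged from 31797 to 83752 units over the arrays, that of Rab5a from 5101 to 11792, that of Uhrf1bp1l from 2981 to 7057 and that of Atg3 from 37.4 to 99.2. Atg3 was thus read from a dim probe, and signals of different probes do not rank the genes. Levels below are log2 signals minus the 75th percentile of the same array.

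The 10 spots show how precisely each array was read. Their SD within an array had a median of 0.063 log2 units for Chgb, 0.060 for Rab5a, 0.097 for Atg3 and 0.050 for Uhrf1bp1l. The SD between arrays of a group, pooled over the groups, was 0.24, 0.19, 0.19 and 0.15 in the same order. The arrays of a group therefore differed by 3.75, 3.22, 1.92 and 2.99 times the spread between spots. For Atg3 the spot SD was 0.066 to 0.098 on slide 1, 0.15 to 0.26 on slide 2 and 0.088 to 0.20 on slide 3. For Rab5a it was 0.019 to 0.040, 0.067 to 0.10 and 0.060 to 0.14 on the same slides. The spots of all 4 genes had their lowest median SD on slide 1.

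The arrays fell into 3 sets by the scan identifiers in the file headers, and arrays that share an identifier are taken here as 1 slide. All sham arrays were on slide 1 together with replicates 2 and 3 of ICH. Replicates 1, 4 and 5 of ICH were on slide 2, and all BYHWD arrays were on slide 3. Slide 1 thus allows a comparison of ICH with sham among arrays that share a scan identifier. No other group was on slide 3, so for BYHWD the slide and the treatment cannot be told apart. The 75th percentile of signal was 421 to 540 units on slide 1, 261 to 303 on slide 2 and 274 to 386 on slide 3. As a sign of RNA integrity, the 3' Gapdh control probe exceeded the 5' one by 0.01 to 0.52 log2 units on slide 1, 0.61 to 0.79 on slide 2 and 0.32 to 0.60 on slide 3. This difference was larger in ICH than in sham by 0.38 and in BYHWD than in sham by 0.26 (2-sided exact permutation test, p = 0.0238 each, adjusted p = 0.0357 over 3 comparisons). Its part in the results below was not tested. In a piece of tissue, fewer cells of a type and less RNA per cell cannot be told apart.

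Chgb, the granule protein gene, showed no difference between groups past the test. Its log2 level on sham arrays 1 to 5 was 7.11, 6.85, 6.97, 7.21 and 7.01. On ICH arrays 1 to 5 it was 7.17, 6.95, 7.64, 6.95 and 6.93. On BYHWD arrays 1 to 5 it was 7.23, 6.78, 6.86, 7.17 and 6.70. ICH 3 was the highest of all 15 arrays, and the 3 groups overlapped.

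The mean level of Chgb (± SD, n = 5 per group) was 7.03 ± 0.14 in sham, 7.13 ± 0.30 in ICH and, under the decoction, 6.95 ± 0.24. ICH exceeded sham 1.07-fold, with a 95% interval of 0.859 to 1.33 (log2 difference 0.10 ± 0.15 SE, limma adjusted p = 0.703). BYHWD was 0.884-fold as high as ICH (log2 difference -0.18 ± 0.15 SE, 95% interval -0.50 to 0.14, limma adjusted p = 0.446) and 0.946-fold as high as sham (0.759 to 1.18, -0.08 ± 0.15 SE, adjusted p = 0.745). Without ICH 3 the difference between ICH and sham was -0.03 and that between BYHWD and ICH was -0.05. ICH 3 alone thus set most of the difference of the ICH mean.

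By slide, Chgb stood 0.27 ± 0.19 SE above sham on the 2 ICH arrays of slide 1 (limma adjusted p = 0.980) and -0.01 ± 0.16 SE from it on the 3 of slide 2 (adjusted p = 0.958). The value of slide 1 rests on ICH 3, since it was 0.61 with ICH 3 alone and -0.08 with ICH 2 alone. The value of slide 2 depended on the scaling: after quantile normalization it was 0.53 ± 0.18 SE and passed the test (adjusted p = 0.0296). BYHWD against the ICH arrays of slide 2 likewise moved from -0.07 to -0.50 (adjusted p = 0.792 and 0.0432). Against the ICH arrays of slide 1, BYHWD differed by -0.35 ± 0.19 SE (limma adjusted p = 0.286), which was -0.69 without ICH 2 and -0.0040 without ICH 3.

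Rab5a, the early endosome gene, was highest on the ICH arrays of slide 2. Its log2 level on sham arrays 1 to 5 was 4.20, 4.07, 4.53, 4.08 and 4.32. On ICH arrays 1 to 5 it was 4.75, 4.32, 4.08, 4.55 and 4.55. On BYHWD arrays 1 to 5 it was 4.18, 4.04, 4.23, 4.06 and 4.20. The ICH arrays 1, 4 and 5 of slide 2 lay above every other array, with sham 3 next, while ICH 2 and ICH 3 lay within the sham range.

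The mean level of Rab5a (± SD, n = 5 per group) was 4.24 ± 0.19 in sham, 4.45 ± 0.26 in ICH and, under the decoction, 4.14 ± 0.09. Over all arrays no comparison passed. ICH exceeded sham 1.16-fold (95% interval 0.957 to 1.40, log2 difference 0.21 ± 0.13 SE, limma adjusted p = 0.294). BYHWD was 0.808-fold as high as ICH (0.668 to 0.976, log2 difference -0.31 ± 0.13 SE, unadjusted p = 0.0297, limma adjusted p = 0.139) and 0.934-fold as high as sham (0.773 to 1.13, adjusted p = 0.630). Without ICH 3 the difference between BYHWD and ICH was -0.40 and passed the limma test (adjusted p = 0.0443). With the slide as a random block this difference was -0.28 ± 0.20 SE (limma adjusted p = 0.783).

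Within slide 1 the 2 ICH arrays differed from sham in Rab5a by -0.04 ± 0.14 SE (limma adjusted p = 0.996). The 3 ICH arrays of slide 2 were 1.30-fold above sham (log2 difference 0.38 ± 0.12 SE, limma adjusted p = 0.0228). In this comparison 36.5% of all tested probes passed. The Rab5a call was lost when each array was centred on its median (0.26, adjusted p = 0.107), without sham 2 (adjusted p = 0.0506) and without ICH 1 (0.31, adjusted p = 0.106). The 2 sets of ICH arrays differed from each other by 0.42 ± 0.15 SE, which did not pass at the 75th percentile scaling (adjusted p = 0.0585) but passed after quantile normalization (0.83, adjusted p = 0.00598) and without sham 3 (adjusted p = 0.0311).

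BYHWD was lower in Rab5a than the ICH arrays of slide 2, 0.719-fold (log2 difference -0.48 ± 0.12 SE, limma adjusted p = 0.00923), and it passed under all 3 scalings compared. It was no longer past the test without ICH 1 (-0.41, adjusted p = 0.0516). In this comparison 27.7% of all tested probes passed. Against the ICH arrays of slide 1 the difference was -0.06 ± 0.14 SE (limma adjusted p = 0.851). Slide 2 was also the slide with the lowest 75th percentile and the largest Gapdh 3' to 5' difference, and their part in the Rab5a values was not tested.

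**Figure D1:**
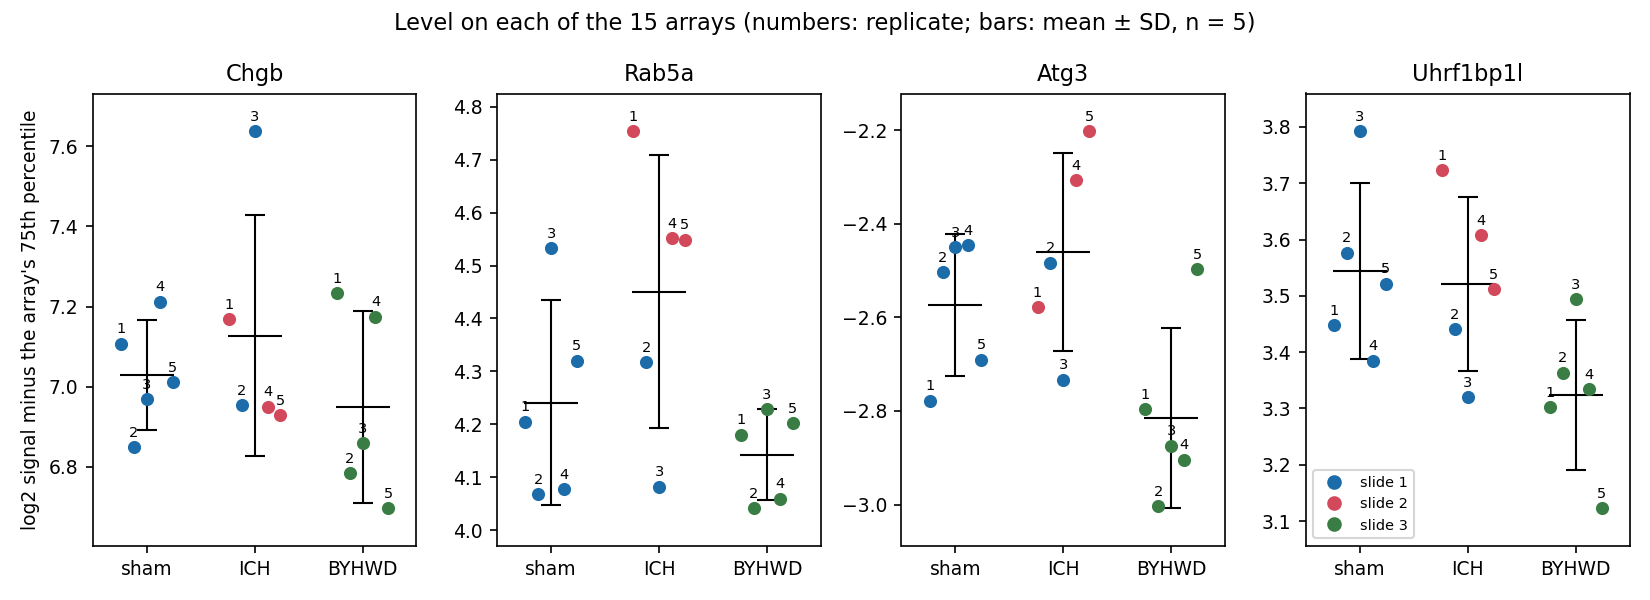
Log2 level of each gene on the 15 arrays (vertical axis, log2 signal minus the array's 75th percentile, a separate scale for each gene), by group on the horizontal axis; points are arrays coloured by slide and numbered by replicate, and bars are the mean ± SD (n = 5). The 3 ICH arrays of slide 2 lie at the top for Rab5a, from 4.55 to 4.75, while 4 of the 5 BYHWD arrays lie at the bottom for Atg3.

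Atg3, the E2-like enzyme gene of autophagy, had its lowest levels on BYHWD arrays. Its log2 level on sham arrays 1 to 5 was -2.78, -2.50, -2.45, -2.45 and -2.69. On ICH arrays 1 to 5 it was -2.58, -2.48, -2.73, -2.31 and -2.20. On BYHWD arrays 1 to 5 it was -2.80, -3.003, -2.87, -2.90 and -2.50. BYHWD arrays 1 to 4 lay below every sham and ICH array, and BYHWD 5 lay within the range of both groups.

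The mean level of Atg3 (± SD, n = 5 per group) was -2.57 ± 0.15 in sham, -2.46 ± 0.21 in ICH and, under the decoction, -2.81 ± 0.19. BYHWD was 0.782-fold as high as ICH, with a 95% interval of 0.650 to 0.942 (log2 difference -0.35 ± 0.13 SE, unadjusted p = 0.0130), and did not pass after adjustment over all tested probes (limma adjusted p = 0.0930). It was 0.846-fold as high as sham (0.702 to 1.02, log2 difference -0.24 ± 0.13 SE, limma adjusted p = 0.198). ICH exceeded sham 1.08-fold (0.898 to 1.30, log2 difference 0.11 ± 0.13 SE, limma adjusted p = 0.588). After quantile normalization BYHWD was lower past the test than both ICH (-0.38, limma adjusted p = 0.0495) and sham (-0.35, adjusted p = 0.0479), and without ICH 3 it was lower than ICH (-0.42, adjusted p = 0.0441). With the slide as a random block the difference from ICH was -0.34 ± 0.21 SE (limma adjusted p = 0.774).

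By slide, BYHWD was lower in Atg3 than the ICH arrays of slide 2, 0.731-fold (log2 difference -0.45 ± 0.14 SE, limma adjusted p = 0.0229). This call was lost without ICH 4, ICH 5 or BYHWD 2, with adjusted p of 0.0752, 0.1002 and 0.0520. In this comparison 27.7% of all tested probes passed. Against the ICH arrays of slide 1 the difference was -0.21 ± 0.16 SE (limma adjusted p = 0.459). The ICH arrays of slide 1 differed from sham by -0.03 ± 0.16 SE (adjusted p = 0.996) and those of slide 2 by 0.21 ± 0.14 SE (adjusted p = 0.244). The spots of Atg3 were least alike on slide 2, where 10 spots of ICH 5 ran from 46.2 to 85.7 units.

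Uhrf1bp1l, the lipid transfer gene, was lowest on average in BYHWD. Its log2 level on sham arrays 1 to 5 was 3.45, 3.58, 3.79, 3.38 and 3.52. On ICH arrays 1 to 5 it was 3.72, 3.44, 3.32, 3.61 and 3.51. On BYHWD arrays 1 to 5 it was 3.30, 3.36, 3.49, 3.33 and 3.12. Sham 3 was the highest array and BYHWD 5 the lowest, and the groups overlapped.

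The mean level of Uhrf1bp1l (± SD, n = 5 per group) was 3.54 ± 0.16 in sham, 3.52 ± 0.15 in ICH and, under the decoction, 3.32 ± 0.13. The log2 difference between ICH and sham was -0.02 ± 0.11 SE (0.983-fold, 95% interval 0.837 to 1.16, limma adjusted p = 0.910). BYHWD was 0.872-fold as high as ICH (0.742 to 1.03, log2 difference -0.20 ± 0.11 SE, limma adjusted p = 0.252) and 0.858-fold as high as sham (0.730 to 1.01, -0.22 ± 0.11 SE, adjusted p = 0.174). On slide 1 the ICH arrays differed from sham by -0.16 ± 0.13 SE (limma adjusted p = 0.984), and those of slide 2 by 0.07 ± 0.11 SE (adjusted p = 0.672). Against slide 2, BYHWD differed by -0.29 ± 0.11 SE, which did not pass (limma adjusted p = 0.0713) except without sham 3 (adjusted p = 0.0466) and after quantile normalization (-0.48, adjusted p = 0.0189). Against slide 1 it differed by -0.06 ± 0.13 SE (limma adjusted p = 0.843).

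**Figure D2:**
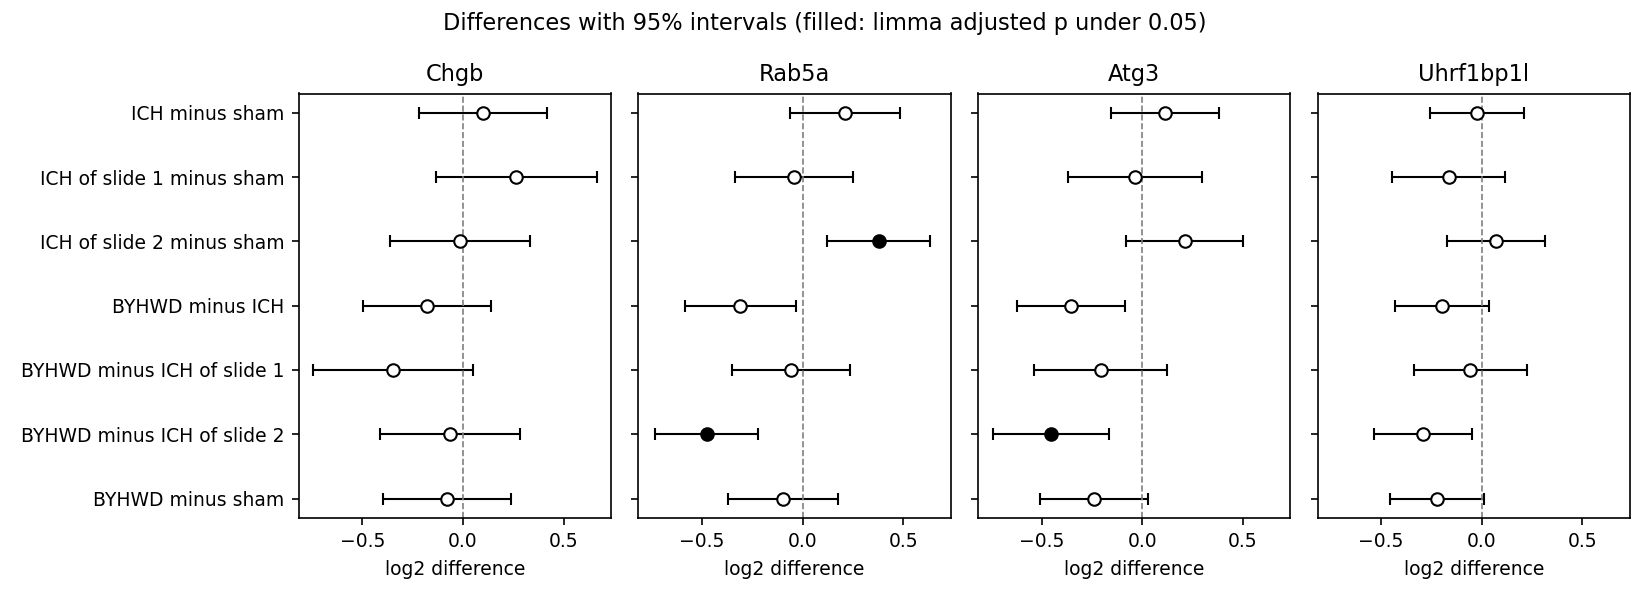
Log2 differences of the 4 genes (horizontal axis) for 7 comparisons (rows), with 95% intervals from limma on all 15 arrays; filled points passed at an adjusted p under 0.05. Only 3 points are filled, all in comparisons with the slide 2 arrays of ICH: Rab5a in ICH minus sham (0.38), and Rab5a and Atg3 in BYHWD minus ICH (-0.48 and -0.45). Among all tested probes 36.5% and 27.7% passed in these comparisons, in that order.

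Read together, 0 of the 4 genes passed the limma test between ICH and sham, where 5.03% of the 51669 tested probes did. At an unadjusted p under 0.05 it was 0 of the 4 genes and 28.5% of all tested probes. Between BYHWD and ICH again 0 passed, against 6.13% of all tested probes, and 2 (Rab5a and Atg3) had an unadjusted p under 0.05, as did 27.6% of all probes. Between BYHWD and sham 0 passed, where 17.3% of the tested probes did. None had an unadjusted p under 0.05 there, where 32.7% of all probes did. The median log2 difference of the 4 genes was 0.11, -0.25 and -0.16 in these 3 comparisons, beside 0.05, 0.00 and 0.02 over all tested probes. All 4 estimates lay below 0 for BYHWD against ICH and for BYHWD against sham, where 50.2% and 52.5% of all probes lay above 0. None of the 4 genes had groups that did not overlap in the 3 comparisons, where 5.05%, 8.12% and 16.8% of the tested probes did. The comparisons share samples, and the 4 genes were chosen with earlier results of these data known. These signs are therefore neither separate pieces of evidence nor those of an unselected set. By absolute size the median difference of the 4 genes was 0.11, 0.25 and 0.16 in the 3 comparisons, beside 0.21, 0.23 and 0.24 over all tested probes. After quantile normalization Chgb and Rab5a lay at 0.03 and 0.01 in BYHWD against sham.

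**Figure D3:**
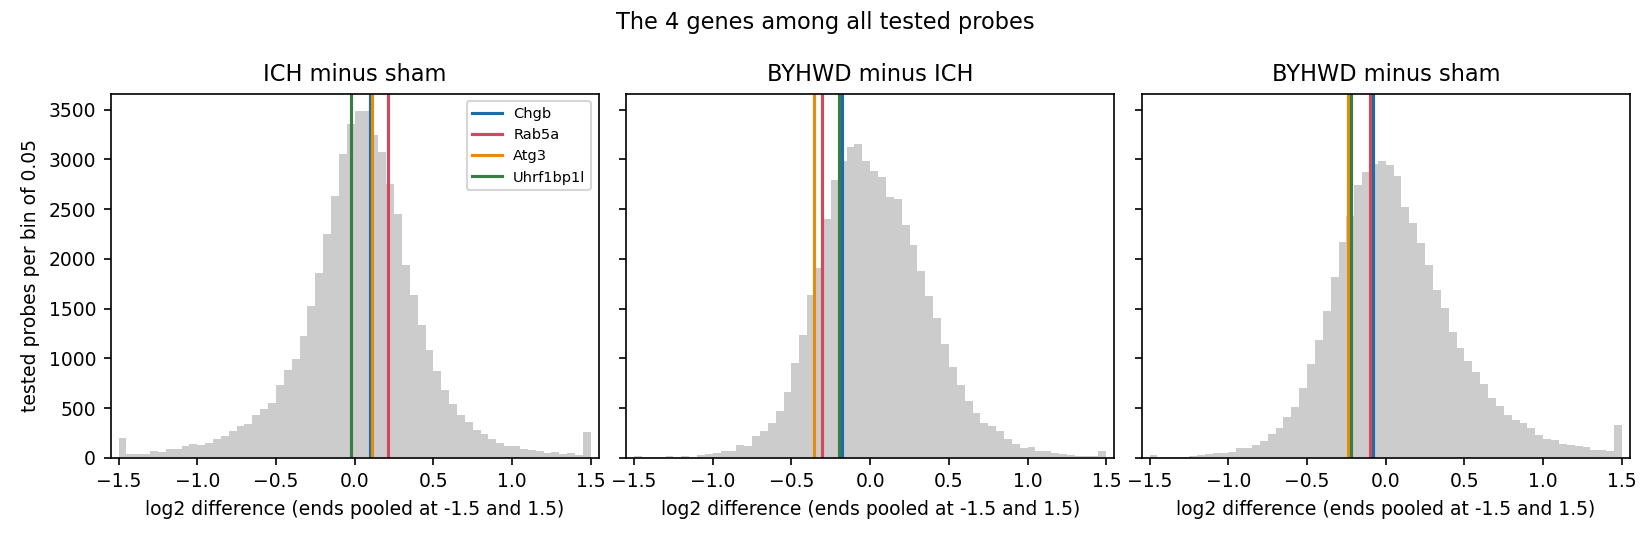
Number of tested probes (vertical axis) by log2 difference (horizontal axis, bins of 0.05, ends pooled at -1.5 and 1.5) in the 3 group comparisons, with the 4 genes as coloured lines. The lines lie inside the bulk of the probes in each panel, from -0.02 to 0.21 for ICH against sham and from -0.35 to -0.18 for BYHWD against ICH.

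By slide, the background was larger than in the pooled comparisons where slide 2 took part, and smaller between ICH and sham within slide 1. With sham set against the slide 2 arrays of ICH, 36.5% of all tested probes passed, and 1 of the 4 genes (Rab5a). Between BYHWD and the ICH arrays of slide 2 it was 27.7% of probes and 2 of the 4 genes (Rab5a and Atg3). Within slide 1, between ICH and sham, 0.339% of probes passed limma's test and 0 of the 4 genes. None of the 4 had an unadjusted p under 0.05, where 5.91% of all probes did. Between BYHWD and the ICH arrays of slide 1 it was 7.17% of probes and 0 of the 4 genes. Again none of the 4 had an unadjusted p under 0.05, where 23.1% of all probes did. Between the 2 sets of ICH arrays 22% of probes passed and 0 of the 4 genes. An unadjusted p under 0.05 was found for 1 of the 4 (Rab5a) and for 34.5% of all probes.

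In the comparison of the slide 2 arrays of ICH with sham, quantile normalization raised the log2 difference of Rab5a from 0.38 to 0.74 (limma adjusted p = 0.00166) and that of Uhrf1bp1l from 0.07 to 0.33 (adjusted p = 0.0752), beside the change of Chgb given above. The dim Atg3 went the other way, from 0.21 to 0.08. Within slide 1, where ICH and sham arrays share a slide, all 4 genes kept their sign under the 3 scalings, and Rab5a ran only from -0.10 to -0.04. Centring on the median moved the median of all probes from 0.09 to -0.02 for slide 2 against sham.

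**Figure D4:**
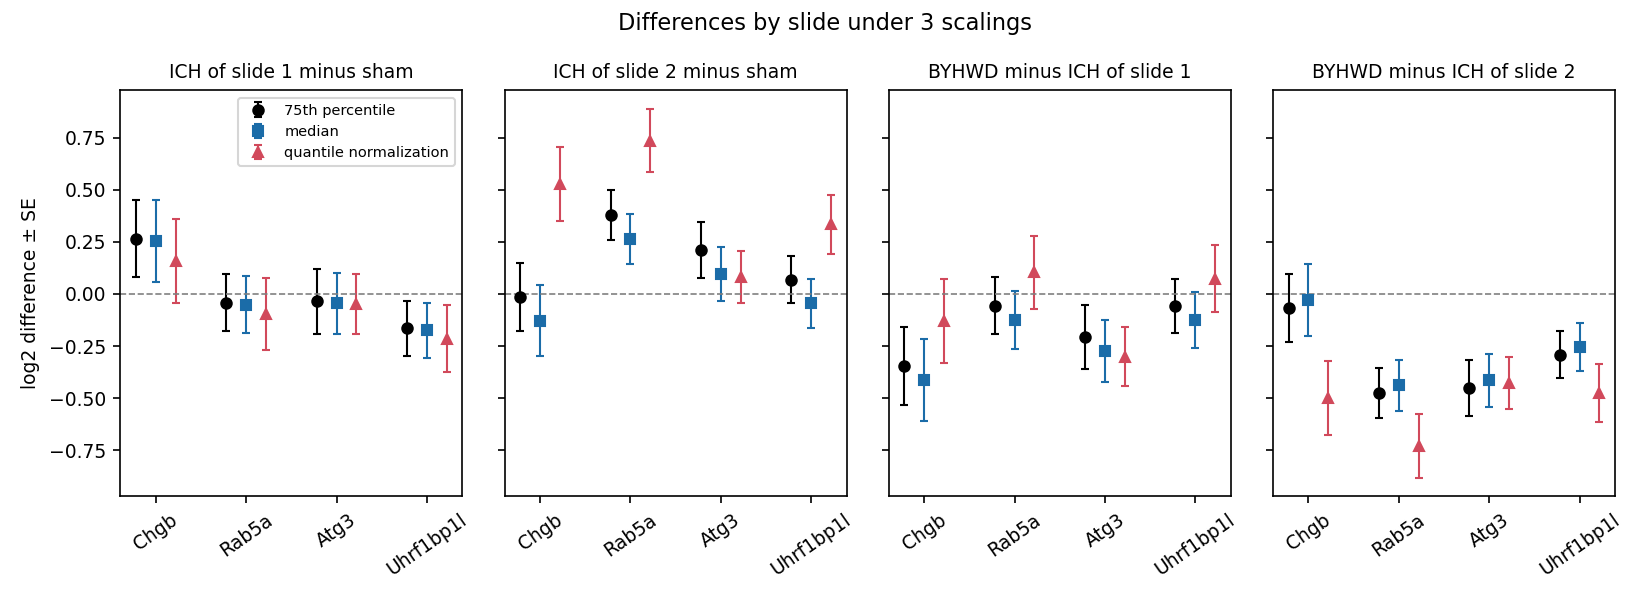
Log2 differences of the 4 genes (vertical axis, ± SE) by gene (horizontal axis) in 4 comparisons by slide, with circles for the 75th percentile, squares for the median and triangles for quantile normalization. For the ICH arrays of slide 2 the triangles stand apart from the other symbols for Chgb, Rab5a and Uhrf1bp1l (0.53, 0.74 and 0.33 against sham), while for slide 1 against sham the 3 symbols of each gene lie close together.

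Across the 15 arrays the levels of Rab5a and Uhrf1bp1l went together (Pearson r = 0.70), and r was 0.60 after the mean of each set of group and slide was removed. Rab5a and Atg3 had r = 0.57, which was 0.10 after the set means were removed. Atg3 and Uhrf1bp1l had r = 0.36 and -0.28, and Chgb had an r of -0.12 with Rab5a, -0.18 with Atg3 and -0.08 with Uhrf1bp1l. After the set means were removed these were -0.23, -0.46 and -0.14. These are descriptions over 15 arrays that share slides and scaling.

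Among the other named genes, the pattern most like that of Rab5a over the 15 arrays was that of Lhfp (r = 0.86, and 0.85 without the set means), followed by Kcnn2, a calcium-activated potassium channel gene (0.80 and 0.71), and Alkbh4, a demethylase gene (0.79 and 0.61). The pattern most like Uhrf1bp1l was that of E2f1, a cell-cycle transcription factor gene (r = 0.83 and 0.79), then Alkbh4 (0.79 and 0.63) and Kcnn2 (0.76 and 0.68). The pattern most like Atg3 was that of Nup50, a nuclear pore gene (r = 0.71 and 0.24), then Alkbh4 (0.64 and 0.11) and Taf1a (0.55 and 0.31). For Chgb the values were lower, with r = 0.38 and 0.31 for Trp53rka and 0.38 and 0.25 for Prdx2, a peroxide-reducing enzyme gene. Without the set means, r with these genes was thus 0.11 to 0.31 for Atg3. For Rab5a and Uhrf1bp1l it was 0.61 to 0.85. The genes were picked by r over the same 15 arrays, so the second r is no separate check.

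Of 97 genes in 7 lists of granules, synaptic vesicles, endosomes, lysosomes, autophagy, lipid bridges and SNAREs, only these 4 had a named probe, so the rest of each pathway was not analysed here. None of the named probes belonged to a neuronal marker, so the neuronal content of the tissue could not be checked. Of 47 marker genes in 11 cell type lists, 4 had a named probe. Apoe, from the list of activated microglia and also made by astrocytes, stood 0.94 above sham in ICH and 0.93 in BYHWD, and Mzb1, of B and plasma cells, 0.69 and 0.64 (log2 differences, limma adjusted p = 0.00825, 0.00275, 0.0266 and 0.0133). Mbp of myelin stood 0.19 and 0.21 above sham (adjusted p = 0.272 and 0.200). Il2 of T cells stood 1.16 and 0.26 above sham (limma adjusted p = 0.0431 and 0.589). Mzb1 and Il2 were both read from dim probes, with mean log2 levels in sham of -3.58 and -4.92, beside -2.57 for Atg3. Within slide 1, ICH exceeded sham by 1.13 in Apoe, 0.29 in Mzb1, 0.27 in Mbp and 0.17 in Il2 (limma adjusted p = 0.0407, 0.844, 0.920 and 0.989). On slide 2 the differences were 0.82, 0.96, 0.14 and 1.82 in the same order (limma adjusted p = 0.00291, 2.78e-05, 0.420 and 2.54e-07), so the pooled values of Mzb1 and Il2 lay mostly in the slide 2 arrays. The part of such cell types in the 4 genes was not tested.

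Outside those lists, Tm9sf1, Cav2 and Anxa8 also encode proteins of endosomes, caveolae and membrane binding, and were picked after their values were seen. Tm9sf1 differed between ICH and sham by 0.20 ± 0.10 SE, Cav2 by 0.18 ± 0.11 SE and Anxa8 by -0.09 ± 0.15 SE (limma adjusted p = 0.193, 0.279 and 0.734). Between BYHWD and ICH they differed by -0.15, -0.16 and 0.10 (limma adjusted p = 0.335, 0.359 and 0.680). None of the 3 passed in either comparison. Between the slide 2 and slide 1 arrays of ICH, where 22% of all tested probes passed, Tm9sf1 differed by 0.16, Cav2 by -0.03 and Anxa8 by -0.57 (limma adjusted p = 0.445, 0.917 and 0.0255).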

How the data were processed

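RNA labelled with Cy3 was read on 15 arrays. Each deposited file gives the intensity of every spot, which Agilent Feature Extraction 11.0.1.1 had corrected for local background with no scaling between arrays, per the file headers. A table of log2 values deposited by the authors, of unknown making, holds none of the 4 probes and served only for counts of probes. Outlier spots (25 to 93 per array) were left out, replicate spots averaged as log2 intensity and the 75th percentile over non-control spots subtracted. Probes well above background on at least 5 arrays were tested (51669). Excluded were 132 spike-in, custom or negative probes and 169 probes with a left-out value. The probe of Uhrf1bp1l was found through its accession, as were all names (RefSeq, GRCm38.p6; 46 of 50 accessions matched).

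The 3 groups were fitted together with limma 3.58.1 in R 4.3.3, 2-sided, with Benjamini-Hochberg adjustment over all tested probes. A second fit had sets of group and slide. The named genes were the 4 genes, any list gene with a named probe and, for each of the 4, the 3 named genes with the highest r. Outside this rule, Tm9sf1, Cav2 and Anxa8 were added after their values were seen. A gene named by this rule is not reported here. The fit was tested on simulated data for ICH against sham, with 200 changed probes among 51669. It recovered 13% of changes of 1.5-fold, 71% of 2-fold and 96.5% of 4-fold, with 1, 7 and 6 false calls. A gene that did not pass is therefore not shown to be unchanged. The simulation changed fewer probes than the 2597 that passed in the data, so its recovery need not be that of the data. The genes and lists were chosen with earlier results of these data known. For normexp the median spot signal was used in place of the planned mean, because the scanner output gives no mean signal.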

Additional observations from a re-analysis of the deposited data

How the results depend on the processing

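The values that follow are log2 differences or numbers of probes that passed limma's test, and their causes were not tested unless stated. The main count was 2597 probes between ICH and sham, 3166 between BYHWD and ICH and 8930 between BYHWD and sham. After quantile normalization Uhrf1bp1l turned to 0.12 in ICH against sham, and Chgb and Rab5a turned to 0.029 and 0.0073 in BYHWD against sham. Atg3 then passed at -0.38 in BYHWD against ICH and at -0.35 in BYHWD against sham. After normexp with quantile normalization Atg3 and Uhrf1bp1l turned to -0.0029 and 0.17 in ICH against sham, Chgb and Rab5a turned to 0.057 and 0.031 in BYHWD against sham, Atg3 passed there at -0.18, and 5105 probes passed in BYHWD against ICH. The authors' table, with 34099 probes, gave 163 probes between ICH and sham and 4955 between BYHWD and sham. Fitting only the groups compared gave 617 probes between ICH and sham and 1710 between BYHWD and ICH. Of the BYHWD against sham calls 6543 were higher and 2387 lower, against 5083 and 4158 after centring on the median and 4934 and 3411 after quantile normalization. For the slide 2 arrays of ICH against sham the split of 11050 and 7819 became 7499 and 10054 after centring on the median.

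A random block for slide gave 360 probes between ICH and sham, 1 between BYHWD and ICH and 3 between BYHWD and sham, where Chgb turned to 0.00065. With the slide as a fixed block 175 probes passed in ICH against sham, and Rab5a and Atg3 turned to -0.041 and -0.034. Leaving out the ICH arrays of slide 2 gave 26 probes. The differences of these genes were again -0.041 and -0.034, which had to be so because the same arrays are compared. Leaving out the ICH arrays of slide 1, chosen after seeing the data, gave 18113 probes in ICH against sham and 13415 in BYHWD against ICH. Chgb and Uhrf1bp1l then turned to -0.014 and 0.070 in ICH against sham, while Rab5a passed at 0.38 there and at -0.48 in BYHWD against ICH, and Atg3 passed at -0.45 in the latter. These differences are the slide 2 comparisons given above and are no separate check.

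The replicate block gave 1159 probes in ICH against sham and 596 in BYHWD against ICH, and it changed no call of the 4 genes. No sign that same-numbered arrays belong together was seen, though 5 arrays per group cannot exclude it. Deviations of same-numbered arrays correlated from -0.34 to -0.03, -0.22 to 0.03 and -0.16 to 0.09 in the 3 comparisons. In these, 0, 0 and 1 of 5 arrays correlated best with their own number.

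The comparisons by slide were repeated under other scalings chosen after seeing the data. After quantile normalization 65 probes passed for the slide 1 arrays of ICH against sham. Chgb then turned to 0.53 for slide 2 against sham and to 0.37 for slide 2 against slide 1, while Rab5a and Uhrf1bp1l passed at 0.83 and 0.55 in the latter. Rab5a and Uhrf1bp1l turned to 0.10 and 0.073 for BYHWD against slide 1, and Chgb and Uhrf1bp1l passed at -0.50 and -0.48 for BYHWD against slide 2. After centring on the median Rab5a lost its call at 0.26, and Uhrf1bp1l turned to -0.045, for slide 2 against sham.

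Leaving out 1 array at a time gave these ranges. For ICH against sham, the count of probes ran from 440 to 10434, Chgb from -0.029 to 0.15, Rab5a from 0.13 (without ICH 1) to 0.30 (without ICH 3), Atg3 from 0.048 (without ICH 5) to 0.18 (without ICH 3) and Uhrf1bp1l from -0.075 to 0.038. For BYHWD against ICH, the count of probes ran from 898 to 6323, Rab5a from -0.40 to -0.23 and Atg3 from -0.43 to -0.29. For BYHWD against sham, the count of probes ran from 5493 to 9511. For ICH of slide 1 against sham, the count of probes ran from 4 to 339, Chgb from -0.076 to 0.61, Rab5a from -0.16 to 0.077 and Atg3 from -0.16 to 0.091. For ICH of slide 2 against sham, Chgb ran from -0.090 to 0.032 and Rab5a from 0.31 to 0.45. For ICH of slide 2 against ICH of slide 1, the count of probes ran from 5695 to 12496, Chgb from -0.62 to 0.062 and Rab5a from 0.30 to 0.54. For BYHWD against ICH of slide 1, the count of probes ran from 286 to 4385, Rab5a from -0.17 to 0.061 and Uhrf1bp1l from -0.12 to 0.0035. For BYHWD against ICH of slide 2, Chgb ran from -0.14 to 0.010, Rab5a from -0.51 to -0.41, Atg3 from -0.56 to -0.37 and Uhrf1bp1l from -0.34 to -0.24. The lowest and highest counts between ICH and sham came without ICH 5 and without ICH 2, and those between BYHWD and ICH without BYHWD 3 and without ICH 3. Atg3 was read at no more than 99.2 units.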
